A study of Rattus norvegicus with 8 samples.

Results

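A set of 38 protein-coding genes that mark astrocytes was read across 8 rat orbitofrontal cortex libraries: 18 identity genes, which mark astrocytes in healthy tissue, and 20 reactive genes, which astrocytes are known to switch on after injury or inflammation. All 38 were found by symbol among the 22293 protein-coding genes of the count table, and all 38 were among the 16573 genes tested. All 8 animals were adult male rats of the outbred Sprague-Dawley stock, 8 weeks old on arrival. The scrambled group (replicates 1, 3, 4 and 5) received a control siRNA, and the other 4 rats (replicates 1 to 4, called knockdown libraries after their labels) an siRNA meant to deplete circNrxn3, a circular RNA from the neurexin 3 gene. Each animal was infused in the orbitofrontal cortex with 5 ng of siRNA in 1 µl of the JetPEI transfection reagent, and tissue was taken 7 days later, so no library comes from an uninfused animal. The whole dissected tissue was sequenced as poly-T selected mRNA.

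Astrocytes clear glutamate from synapses, turn it into glutamine for neurons, take up potassium, move water at the vessel wall and form a network through gap junctions. When tissue is injured or inflamed they enlarge, build more of the intermediate filaments GFAP and vimentin, and can produce secreted and complement proteins. Infusion through a needle is itself an injury, and it was shared by both groups.

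The 2 strands of the siRNA against circNrxn3, which define the groups, are given below as the labels state them, 5′ to 3′, with bases 2 to 8 (the seed) in capitals.
Sense: uCCAAAGGcuagacaggaauu
Antisense: uUCCUGUCuagccuuuggauu

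Total counts ran from 27589883 to 35191810 in scrambled and from 28219271 to 35221782 in knockdown libraries. Poly-T selection leaves out circles, so the libraries do not check the level of circNrxn3, and the linear host transcripts, counted as Nrxn3, differed by 0.20 ± 0.48 (log2 fold change and its standard error, SE). Each gene's log2 level in a library was also taken as its deviation from the gene's mean over all libraries. A library's balance of long against short transcripts compared median deviations between gene sets. It was the median of genes of at least 3486 bp minus that of genes of at most 1372 bp. This balance ran from −0.19 to 0.07 in scrambled and from −0.07 to 0.20 in knockdown libraries. Markers of the other cells in the tissue were measured in every library. Summed neuronal markers were at 8551 to 9213 CPM (counts scaled by library size with the TMM factors) in scrambled and 8641 to 9609 CPM in knockdown libraries.

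No astrocyte gene passed the test between the groups. In edgeR's quasi-likelihood test with Benjamini-Hochberg adjustment over all genes, the 38 genes had adjusted p-values of 0.833 to 0.998, and the test called 0 of 16573 genes (0% called). At an unadjusted p under 0.05, 5 of the 38 genes were lower and 0 were higher in knockdown libraries, beside 3.2% of all genes lower and 2.38% higher (5.59% in either direction). The 5 were Ntsr2, Mlc1 and S100b among the identity genes and Cd44 and Gfap among the reactive genes. Every knockdown value lay below every scrambled value for 3 genes (Ntsr2, Cldn10 and Cd44) and above for 0, beside 1.65% and 1.82% of all genes (3.48% in either direction). Over all genes 926 had an unadjusted p under 0.05. DESeq2 called 18 genes and limma-voom 0, and no member was among them, although DESeq2 gave an adjusted p for only 10 of the 38 members.

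By direction, 13 of 18 identity genes and 15 of 20 reactive genes had a log2 fold change (knockdown over scrambled) below 0, beside 48.7% of all genes tested. The median was −0.08 for identity genes and −0.15 for reactive genes, beside 0.01 for all genes. Both medians moved with single libraries. The identity median was −0.05 without scrambled replicate 1 and −0.13, −0.14 and −0.13 without scrambled replicate 3, scrambled replicate 4 and knockdown replicate 2. With 3 libraries left out at once (scrambled 3, scrambled 4 and knockdown 3) it was −0.13. The reactive median was −0.28 without scrambled replicate 3 and −0.27 without knockdown replicate 1. It was −0.07 and −0.05 without knockdown replicates 2 and 4, −0.25 without the same 3 libraries, and −0.09 on the log2(FPKM + 1) scale. No difference in these genes passed the test. Bulk tissue also cannot tell a change in astrocyte number from a change in RNA per astrocyte.

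**Figure D1:**
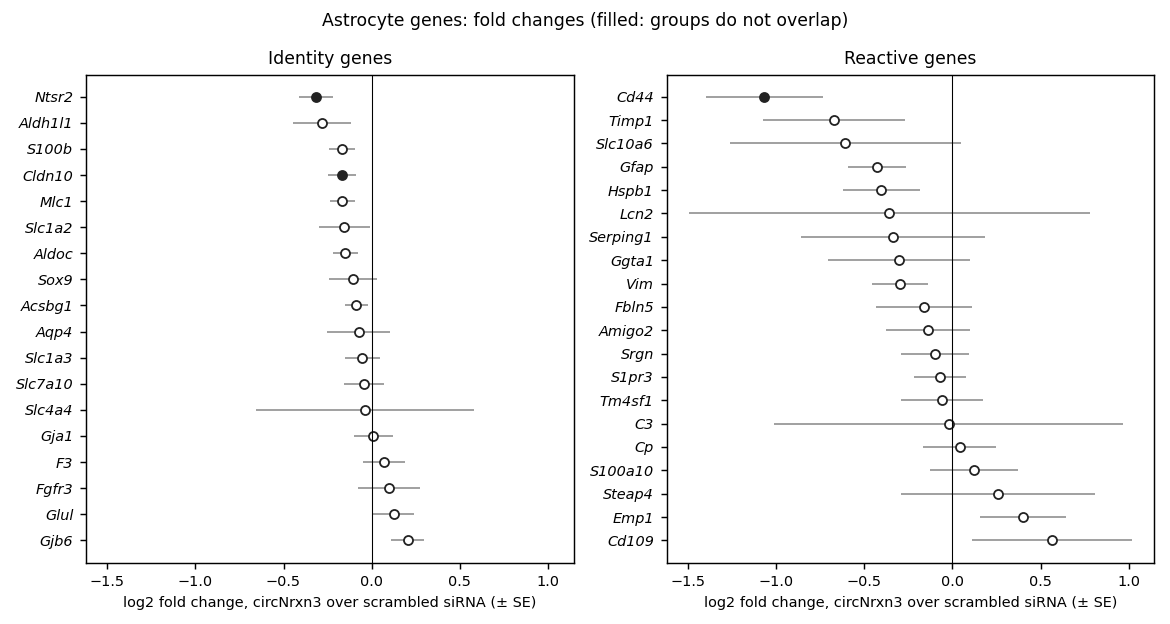
Log2 fold changes of circNrxn3 over scrambled siRNA for the 18 identity genes (left) and the 20 reactive genes (right), on the horizontal axis, with bars of 1 standard error from the edgeR fit of 4 against 4 libraries. Filled points are genes whose groups do not overlap (Ntsr2, Cldn10 and Cd44), and 13 identity and 15 reactive genes lie to the left of 0.

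Levels of different genes are ordered here by the authors' FPKM values, which are scaled by gene length. S100b, a calcium-binding protein of astrocytes, had the highest mean over the 8 libraries at 947 FPKM, above 99.8% of protein-coding genes of the table. Aldoc followed at 671 FPKM, Glul at 374 FPKM and Gfap, the first of the reactive genes, at 185 FPKM. Ntsr2 was at 147, Mlc1 at 104 and Slc1a3 at 100.1 FPKM. The 9 highest genes thus held 8 identity genes, all but Gfap. The lowest were the reactive genes Cd109 at 0.134, Slc10a6 at 0.273, Steap4 at 0.417 and Cd44 at 0.476 FPKM. Slc4a4, at 0.712 FPKM, was the only identity gene among the 11 lowest. All 18 identity genes had counts in every library.

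The genes for glutamate handling had overlapping values in both groups. Slc1a3 (ENSRNOG00000016163, chromosome 2, 57860834 to 57935363, rn6) encodes the glutamate transporter GLAST. In the order of the replicate numbers it was at 464, 387, 385 and 402 CPM in scrambled libraries and at 413, 449, 375 and 342 CPM in knockdown libraries. The groups overlapped, and the log2 fold change was −0.05 ± 0.10 (SE). Slc1a2 (ENSRNOG00000005479, chromosome 3, 92640752 to 92665644), which encodes the main glutamate transporter of forebrain astrocytes, GLT-1, was at 32.3, 24.6, 26.0 and 28.2 CPM in scrambled and 27.6, 24.02, 18.6 and 29.4 CPM in knockdown libraries. Its log2 fold change was −0.16 ± 0.14 (SE), and knockdown replicate 3 was the lowest library. The gene model of Slc1a2 holds 882 bp of exons and whether it covers all exons was not checked, so its level may miss part of the mRNA.

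Glul (ENSRNOG00000049560, chromosome 13, 71331052 to 71340229) encodes glutamine synthetase, which makes glutamine from glutamate and ammonia. It was at 971, 765, 828 and 1024 CPM in scrambled and 902, 1144, 896 and 971 CPM in knockdown libraries. The highest value was in knockdown replicate 2 and the lowest in scrambled replicate 3, and the log2 fold change was 0.12 ± 0.12 (SE). Slc7a10, a transporter of D-serine and other small amino acids, ranged from 36.8 to 50.9 CPM with a log2 fold change of −0.04. It overlaps Lrp3 on the opposite strand, and whether counting used strand is not given in these sources.

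Of the 2 gap junction genes, Gja1 (ENSRNOG00000000805, chromosome 20, 37876650 to 37889089; connexin 43) had overlapping values and Gjb6 (ENSRNOG00000022116, chromosome 15, 37400889 to 37410848; connexin 30) had the largest positive difference of the identity genes. Gja1 was at 215, 178, 172 and 169 CPM in scrambled and 187, 210.5, 187 and 155 CPM in knockdown libraries, means of 184 ± 21.1 and 185 ± 22.9 CPM (SD, n = 4 each), and its log2 fold change of 0.01 was −0.0034 with RLE scaling. Gjb6 was at 28.9, 29.9, 29.6 and 35.3 CPM in scrambled and 33.0, 35.7, 39.8 and 34.1 CPM in knockdown libraries. Scrambled replicate 5 lay among the knockdown values, and the other 3 scrambled libraries lay below all of them. The log2 fold change of Gjb6 was 0.20 ± 0.09 (SE, edgeR adjusted p = 0.833).

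The membrane genes Mlc1 and Cldn10 had lower means in knockdown libraries but did not pass the test. The groups overlapped for Mlc1 and Aqp4 and not for Cldn10. Mlc1 (ENSRNOG00000032871, chromosome 7, 129949967 to 129970550) encodes a membrane protein of astrocyte endfeet that is mutated in a leukodystrophy. It was at 340, 314, 300.4 and 341 CPM in scrambled and 273, 293, 305 and 284 CPM in knockdown libraries, so 3 of the 4 knockdown values lay below all scrambled ones. Its log2 fold change was −0.17 ± 0.07 (SE). Cldn10 (ENSRNOG00000010085, chromosome 15, 104026601 to 104115748), a claudin, was at 41.4, 44.9, 42.7 and 40.0 CPM in scrambled and 38.7, 39.5, 38.8 and 33.4 CPM in knockdown libraries. The groups did not overlap, but the gap between them was under 1 CPM, and the log2 fold change was −0.17 ± 0.08 (SE, edgeR adjusted p = 0.833 for both genes).

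Aqp4 (ENSRNOG00000016043, chromosome 18, 6765945 to 6782996) encodes the water channel of astrocyte endfeet. It was at 239, 138, 172 and 186 CPM in scrambled and 198, 206, 155 and 139 CPM in knockdown libraries. Both groups held high and low libraries, and the log2 fold change was −0.08 ± 0.18 (SE). Slc4a4, a sodium bicarbonate cotransporter, varied most of the identity genes, from 0.756 CPM in knockdown replicate 3 to 6.19 CPM in scrambled replicate 1. Its log2 fold change was −0.04 ± 0.62 (SE). The libraries low in Slc4a4, knockdown replicate 3 and scrambled replicates 3 and 4, were also the 3 lowest in the balance of long to short transcripts. The part of that balance in the Slc4a4 values was not tested.

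The 3 metabolic genes had log2 fold changes below 0, as did 48.7% of all genes tested, and overlapping groups. Aldoc (ENSRNOG00000011452, chromosome 10, 65586504 to 65590126), the brain form of the glycolytic enzyme aldolase, was at 1134, 1249, 1195 and 1217 CPM in scrambled and 1001, 1065, 1116 and 1140 CPM in knockdown libraries. Only knockdown replicate 4 reached the scrambled values, and the log2 fold change was −0.15 ± 0.07 (SE). Aldh1l1 (ENSRNOG00000047023, chromosome 4, 123516788 to 123557501), an enzyme of folate metabolism widely used as an astrocyte marker, was at 24.04, 24.9, 15.5 and 22.0 CPM in scrambled and 15.2, 19.1, 21.2 and 15.7 CPM in knockdown libraries. Scrambled replicate 4 lay with the low knockdown libraries, and the log2 fold change was −0.28 ± 0.17 (SE). Acsbg1, an acyl-CoA synthetase, had the smallest spread of the 38 genes, 168 to 194 CPM over the 8 libraries, and a log2 fold change of −0.09.

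Ntsr2 and S100b had the lowest unadjusted p-values here together with Mlc1. Ntsr2 (ENSRNOG00000049054, chromosome 6, 41917132 to 41923542) encodes a neurotensin receptor found mainly on astrocytes. It was at 199.8, 226, 193 and 202 CPM in scrambled and 148, 174, 191 and 147 CPM in knockdown libraries, means of 205 ± 14.5 and 165 ± 21.1 CPM (SD, n = 4 each). No knockdown value reached a scrambled one, although knockdown replicate 3 and scrambled replicate 4 were within 3 CPM of each other. The log2 fold change was −0.31 ± 0.10 (SE, edgeR adjusted p = 0.833). Its adjusted p was 0.134 with the replicate numbers as a block, the smallest of any member in any fit that gave one. That fit takes the group difference from replicates 1, 3 and 4 only, the numbers found in both groups.

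S100b (ENSRNOG00000001295, chromosome 20, 13130636 to 13142856) was at 1519, 1497, 1418 and 1568 CPM in scrambled and 1281, 1268, 1424 and 1367 CPM in knockdown libraries. Of the 4 knockdown values 3 lay below the scrambled range, and the log2 fold change was −0.17 ± 0.07 (SE, edgeR adjusted p = 0.833). Sox9, a transcription factor that astrocytes need to form, ranged from 13.1 to 19.0 CPM with a log2 fold change of −0.11. Fgfr3, a fibroblast growth factor receptor, and F3, which encodes tissue factor, the starter of blood clotting, had log2 fold changes of 0.10 and 0.07 with standard errors of 0.17 and 0.12.

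**Figure D2:**
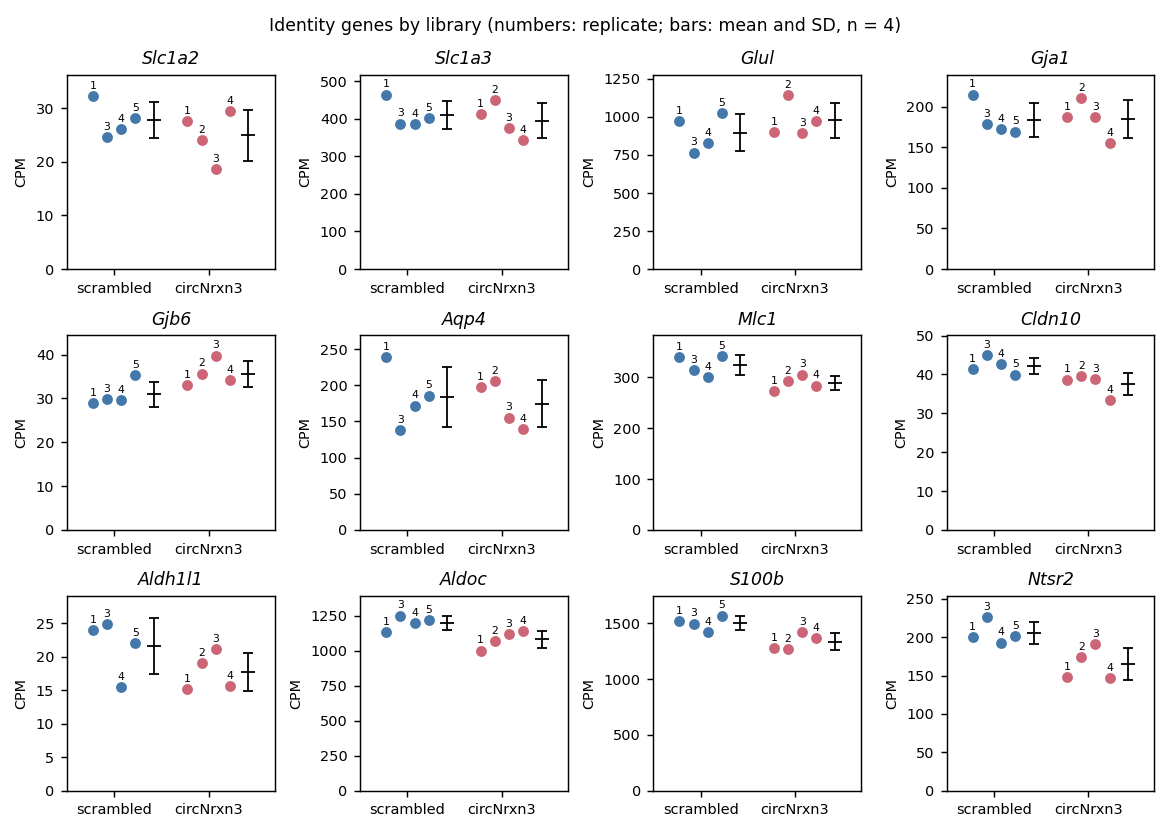
CPM (vertical axis, from 0) of 12 identity genes in each library of the scrambled (blue) and circNrxn3 (red) siRNA groups, with the replicate number over each point and the mean ± SD of each group in black (n = 4). Ntsr2 and Cldn10 do not overlap between groups, and Gja1 and Glul do.

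By library, the highest value of an identity gene was in a scrambled library for 15 of 18 genes and the lowest was in a knockdown library for 12. The same shares over all genes were not computed, so these counts are not read as a group difference. Scrambled replicate 1 held the highest value of 7 genes, and scrambled replicate 4 of 0. A score was taken as the mean over the identity genes of log2 CPM minus each gene's own mean. It was 0.19, −0.0011, −0.16 and 0.13 in scrambled libraries and −0.06, 0.13, −0.12 and −0.10 in knockdown libraries. The group means were 0.04 ± 0.16 and −0.04 ± 0.11, so the libraries of each group spread more widely (SD, n = 4 each) than the means were apart.

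The 9 reactive genes of the pan-reactive panel, known to respond to many kinds of injury, had 7 log2 fold changes below 0 and a median of −0.36, which is the value of Lcn2 (1.00 with limma-voom), and none passed the test. Gfap (ENSRNOG00000002919, chromosome 10, 90990762 to 90999435) encodes the main intermediate filament of reactive astrocytes. It was at 593, 437, 609 and 665 CPM in scrambled and 445, 429, 524 and 315 CPM in knockdown libraries, means of 576 ± 97.7 and 428 ± 86.2 CPM (SD, n = 4 each). Scrambled replicate 3 lay inside the knockdown range, the other 3 scrambled libraries lay above all knockdown libraries, and knockdown replicate 4 was the lowest. The log2 fold change was −0.43 ± 0.17 (SE, edgeR adjusted p = 0.833). It ran from −0.55 to −0.31 as each library was left out.

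Gfap was also read against other astrocyte genes of the same library. This removes a shared change of all astrocyte RNA only so far as both genes of a ratio come from astrocytes. The reactive gene Vim, also used here, belongs to the same panel as Gfap. Scrambled libraries had a log2 ratio of Gfap to Aqp4 of 1.66 ± 0.25 and knockdown libraries of 1.29 ± 0.31 (SD, n = 4 each). That difference of −0.37 had an exact permutation p of 0.0857 (2-sided, 70 arrangements of the labels, smallest possible p 0.0286). For Gfap to S100b the difference was −0.26 (exact permutation p = 0.286), for Gfap to Aldh1l1 −0.16 (exact permutation p = 0.600) and for Gfap to Vim −0.11 (exact permutation p = 0.514). Adjusted over these 4 ratios, the permutation p-values were 0.343 to 0.600.

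Vim (ENSRNOG00000018087, chromosome 17, 80882666 to 80891212), the filament protein vimentin, was at 51.8, 47.8, 47.7 and 43.7 CPM in scrambled and 38.9, 33.8, 53.3 and 29.7 CPM in knockdown libraries. Knockdown replicates 1, 2 and 4 lay below the scrambled range and knockdown replicate 3 above it, for a log2 fold change of −0.30 ± 0.16 (SE). Hspb1, a small heat shock protein, was at 9.27, 8.02, 6.88 and 8.43 CPM in scrambled and 7.43, 5.03, 7.88 and 4.29 CPM in knockdown libraries. Its log2 fold change was −0.40 ± 0.22 (SE), and knockdown replicates 2 and 4 were the lowest, as for Vim.

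Cd44 (ENSRNOG00000006094, chromosome 3, 92696313 to 92783658), the hyaluronan receptor found on fibrous and reactive astrocytes and on leukocytes, had the largest fold change of the 38 genes. It had 110, 52, 94 and 60 counts in scrambled and 57, 34, 34 and 33 counts in knockdown libraries. On the CPM scale these were 3.94, 1.55, 2.80 and 2.04 against 1.54, 1.11, 1.22 and 1.04. The groups did not overlap, but scrambled replicate 3 and knockdown replicate 1 were almost level at 1.55 and 1.54 CPM. The log2 fold change was −1.07 ± 0.33 (SE, edgeR adjusted p = 0.833).

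Timp1 (ENSRNOG00000010208, chromosome X, 1364786 to 1369384), an inhibitor of matrix metalloproteinases, was at 2.65, 1.22, 3.64 and 2.01 CPM in scrambled and 1.92, 0.914, 2.09 and 1.04 CPM in knockdown libraries. Its log2 fold change was −0.67 ± 0.40 (SE). Timp1 lies within the gene model of Syn1 on the opposite strand, which had a median of 29956 counts against 58.5 for Timp1, so reads of Syn1 may be counted in Timp1 if strand was not used. The panel also holds Lcn2, described with C3 for its spread, S1pr3, a sphingosine phosphate receptor (log2 fold change −0.07), the ferroxidase gene Cp (0.04) and the metalloreductase gene Steap4 (0.26). Cp overlaps Hps3 on the opposite strand.

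The panel known from inflamed tissue, Amigo2, C3, Fbln5, Ggta1, Serping1 and Srgn, varied more between animals than between groups. C3 (ENSRNOG00000046834, chromosome 9, 9721105 to 9747167), the central protein of complement, was at 33.3, 1.91, 56.1 and 66.6 CPM in scrambled and 90.7, 14.1, 35.4 and 15.1 CPM in knockdown libraries. The highest library had 47.5 times the CPM of the lowest (3355 and 64 counts), while the group means were 39.5 ± 28.7 and 38.8 ± 35.9 CPM (SD, n = 4 each). The log2 fold change was −0.02 ± 0.99 (SE). Serping1 (ENSRNOG00000007457, chromosome 3, 72161189 to 72171078), which encodes the C1 inhibitor of complement, was at 10.9, 6.23, 12.8 and 6.19 CPM in scrambled and 13.7, 2.74, 8.96 and 3.15 CPM in knockdown libraries, a log2 fold change of −0.34 ± 0.52 (SE).

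C3 and Serping1 were both highest in knockdown replicate 1 and low in knockdown replicates 2 and 4. They differed in scrambled replicate 5, which was at 66.6 CPM, next to the highest, for C3 and at 6.19 CPM, below 5 of the other 7 libraries, for Serping1. Srgn, a proteoglycan of secretory granules, ranged from 15.5 to 28.8 CPM with a log2 fold change of −0.10. Ggta1, a glycosyltransferase, Fbln5, an elastic fibre protein, and Amigo2, an adhesion protein, had log2 fold changes of −0.30, −0.16 and −0.14 with standard errors of 0.40, 0.27 and 0.24. Each of the 6 genes had a log2 fold change below 0 and overlapping groups, but 3 of them turned in part of the alternatives, C3 (0.47 with limma-voom) and, with single libraries left out, Amigo2 (up to 0.075) and Srgn (up to 0.0056).

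Lcn2 (ENSRNOG00000013973, chromosome 3, 11414186 to 11417546) encodes lipocalin 2, an iron-binding secreted protein of inflammation. It had 102, 0, 155 and 26 counts in scrambled and 114, 6, 47 and 68 counts in knockdown libraries. A count of 0 in scrambled replicate 3 allows up to 0.0894 CPM (3 counts, counting error only), against 4.62 CPM in scrambled replicate 4, the highest library. Both groups thus held a library near 0 and a library above 3 CPM, and the log2 fold change of −0.36, 1.00 with limma-voom, had a standard error of 1.14. Scrambled replicate 3 was the lowest library for both C3 and Lcn2.

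The panel known from ischaemic tissue, Cd109, Emp1, S100a10, Slc10a6 and Tm4sf1, held 3 genes above 0 and 2 below. Emp1 (ENSRNOG00000008676, chromosome 4, 169147243 to 169181966), a membrane protein of epithelia and glia, was at 3.51, 2.62, 4.44 and 2.65 CPM in scrambled and 3.59, 4.05, 5.72 and 4.10 CPM in knockdown libraries. Its log2 fold change was 0.40 ± 0.24 (SE). S100a10, a partner of annexin A2, ranged from 20.5 to 42.5 CPM with a log2 fold change of 0.12, and knockdown replicate 3 was the highest for both Emp1 and S100a10. Cd109, a surface protein that binds transforming growth factor beta, had 0.56 (standard error 0.45), Tm4sf1 −0.06 and Slc10a6, a transporter of steroid sulfates, −0.61 (standard error 0.65). Cd109 and Slc10a6 had at most 33 and 24 counts in a library.

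**Figure D3:**
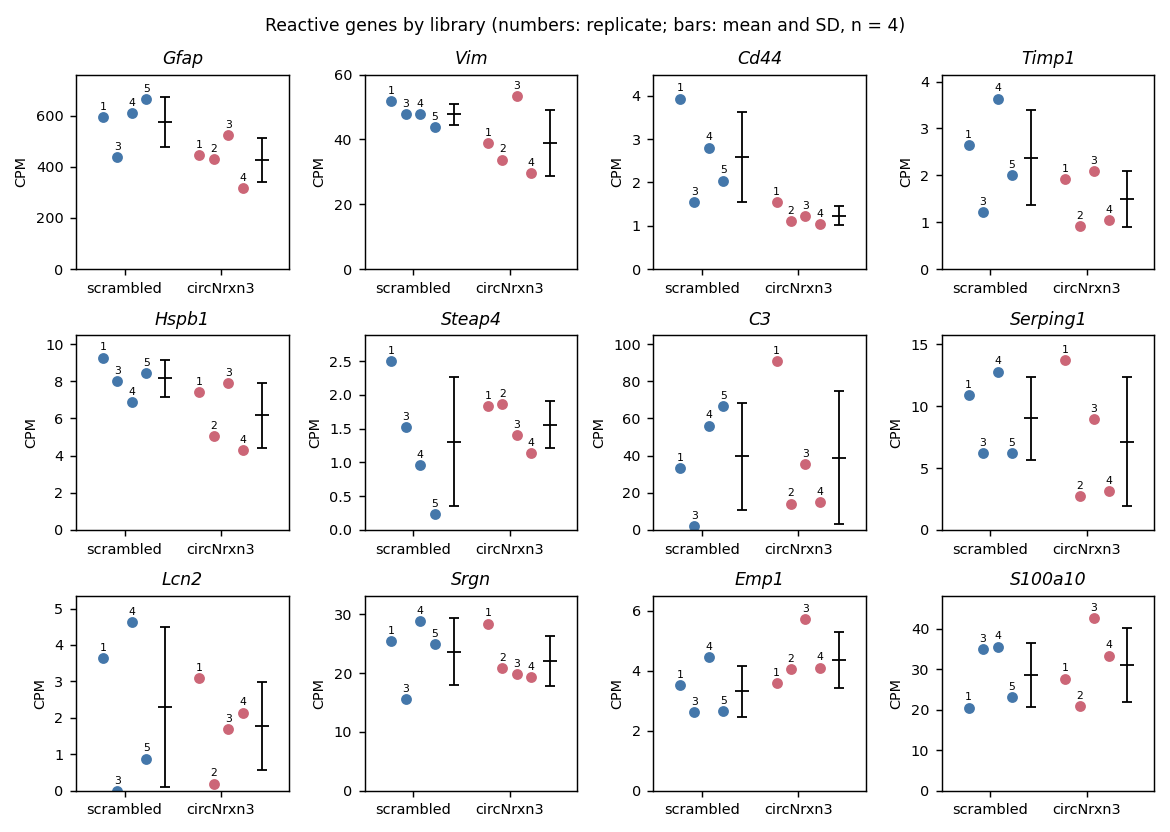
CPM (vertical axis, from 0) of 12 reactive genes in each library of the scrambled (blue) and circNrxn3 (red) siRNA groups, with the replicate number over each point and the mean ± SD of each group in black (n = 4). Cd44 alone does not overlap between groups, Lcn2 has a library near 0 in both groups, and C3 ranges from 1.91 to 90.7 CPM.

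The reactive score, built like the identity score, was 0.37, −0.49, 0.31 and 0.05 in scrambled and 0.25, −0.29, 0.18 and −0.37 in knockdown libraries. High and low libraries occurred in both groups, at 0.06 ± 0.39 and −0.06 ± 0.32 (SD, n = 4 each). Knockdown replicate 4 held the lowest value of 8 of the 20 genes, and scrambled replicate 3 of 4. The highest value was in a scrambled library for 10 genes and in a knockdown library for 10. Shares over all genes were not computed for these counts either.

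**Figure D4:**
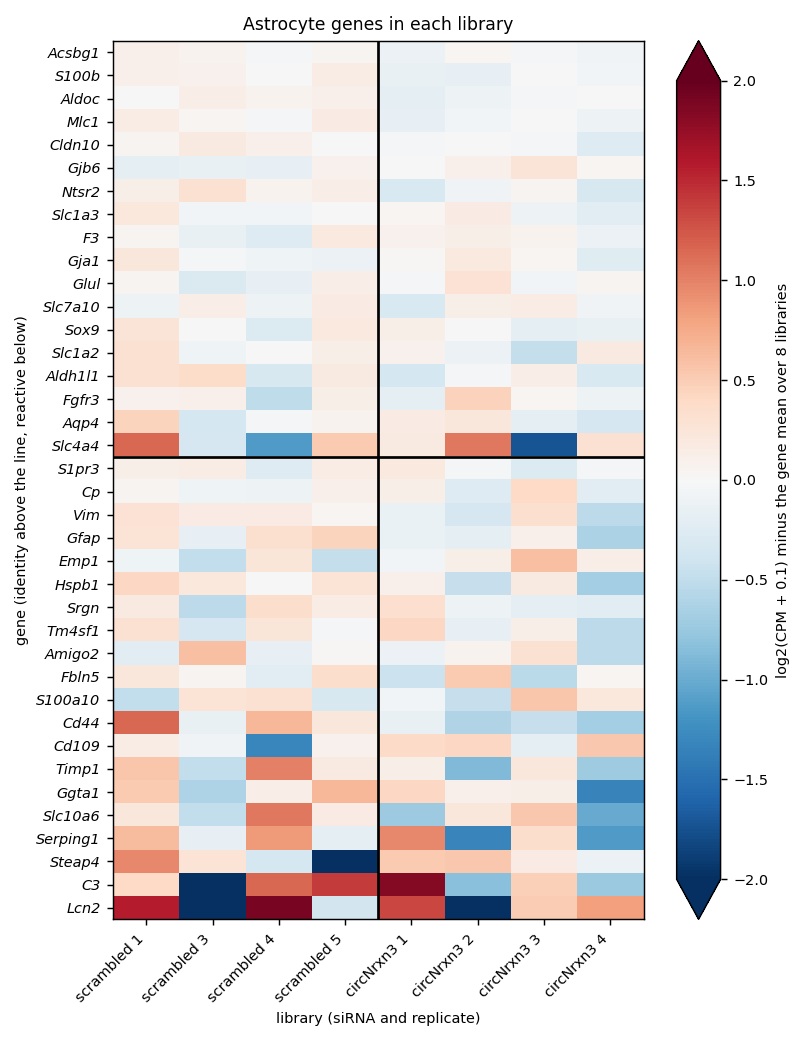
Log2(CPM + 0.1) of each of the 38 genes minus its mean over the 8 libraries (colour, red above and blue below the mean, limited to ±2), with libraries in columns and genes in rows, sorted by spread within the identity genes (above the line) and the reactive genes (below). The strongest colours are in C3 and Lcn2, both lowest in scrambled replicate 3.

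The reactive genes varied more between animals of a group than the identity genes. The pooled within-group SD of log2 CPM had a median of 0.17 for identity genes and 0.40 for reactive genes, beside 0.24 for all genes tested. The highest library had over 2 times the CPM of the lowest for 1 of 18 identity genes (Slc4a4) and for 14 of 20 reactive genes, with Lcn2 not counted because of its 0. The counts behind these SDs also differed, with a median of 112 CPM (not scaled by length) for identity genes and 5.55 CPM for reactive genes. C3, at a mean level of about 39 CPM in both groups, was above 99.5% of all genes in spread, and Gfap, at 576 and 428 CPM, above 57.7%.

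**Figure D5:**
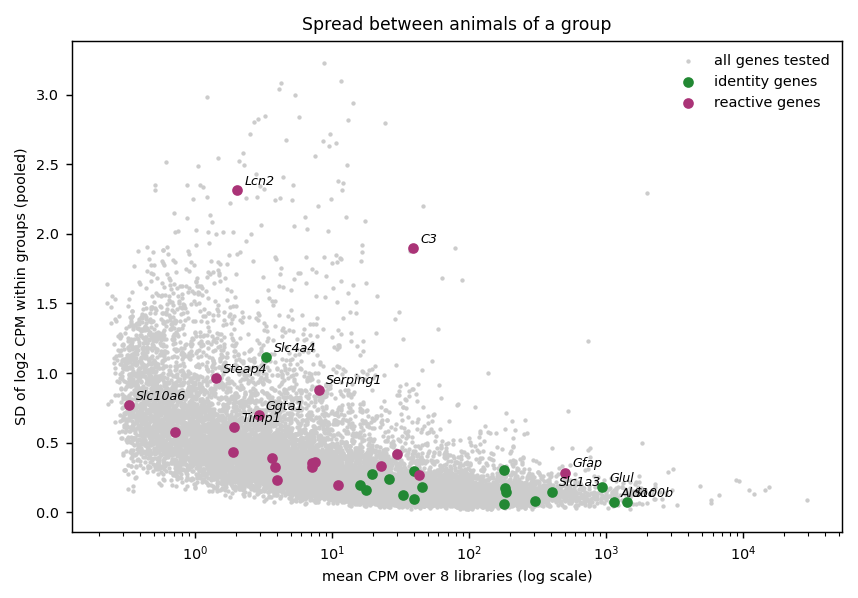
Pooled within-group SD of log2 CPM (vertical axis) against mean CPM over the 8 libraries (horizontal axis, log scale) for all 16573 genes tested (grey), the 18 identity genes (green) and the 20 reactive genes (purple). Identity genes have a median SD of 0.17 and reactive genes of 0.40, with Lcn2 and C3 highest.

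Promoters were searched because several reactive genes are known targets of STAT3, NF-kappaB and C/EBP factors. RefSeq (assembly GRCr8) held 39 promoter windows for 33 of the 38 genes, and the 250 bases before the start were searched on both strands. The STAT letters TTCNNNGAA were in 2 of 22 windows of identity genes and 2 of 17 of reactive genes, beside 7.67% of all windows. The NF-kappaB letters (GGG, any 3 bases, then TTCC) were in 2 and 3 windows, beside 4.53%. The C/EBP letters TTGCNNAA were in 3 and 4 windows, beside 9.22%. The windows of Gfap, the most abundant reactive gene, and of C3 and Lcn2, the most variable, are printed with matches in capitals, at chr10:88361662-88361911, chr9:2201340-2201589 and chr3:36081781-36082030, all on the minus strand of GRCr8.
Gfap: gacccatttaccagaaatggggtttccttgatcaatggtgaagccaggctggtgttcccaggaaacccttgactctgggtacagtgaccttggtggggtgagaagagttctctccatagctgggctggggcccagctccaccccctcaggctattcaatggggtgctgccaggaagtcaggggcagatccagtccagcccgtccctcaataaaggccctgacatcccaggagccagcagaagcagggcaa
C3: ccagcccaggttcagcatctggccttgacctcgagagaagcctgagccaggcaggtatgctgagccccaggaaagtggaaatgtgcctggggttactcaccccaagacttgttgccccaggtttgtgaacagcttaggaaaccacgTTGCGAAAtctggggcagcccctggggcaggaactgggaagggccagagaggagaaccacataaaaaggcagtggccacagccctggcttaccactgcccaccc
Lcn2: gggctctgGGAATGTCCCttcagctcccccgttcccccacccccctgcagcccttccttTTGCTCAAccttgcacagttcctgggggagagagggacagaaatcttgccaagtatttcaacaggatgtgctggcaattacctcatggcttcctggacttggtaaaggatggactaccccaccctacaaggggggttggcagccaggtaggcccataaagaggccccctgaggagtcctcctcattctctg
The C/EBP letters begin 104 bases before the start of C3 and 191 before that of Lcn2, and the NF-kappaB letters 242 before that of Lcn2, read on its reverse strand. Neither of these, nor the STAT letters, is in the window of Gfap. A match or its absence describes these letters only.

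Other astrocyte genes were taken from 8 lists of 104 entries, of which 89 were tested. None passed the test (edgeR adjusted p 0.833 to 0.999), 58 were below 0, and at an unadjusted p under 0.05 8 were lower and 0 higher, beside 3.2% and 2.38% of all genes. Of 10 transcription factors of the lineage 7 were below 0 (median −0.09). Hes5 (ENSRNOG00000013850), a target of Notch signalling, was at 35.0, 37.2, 22.8 and 27.8 CPM in scrambled and 20.8, 17.95, 23.9 and 17.5 CPM in knockdown libraries, a log2 fold change of −0.62 ± 0.16 (SE). Id3 (ENSRNOG00000026124), a target of bone morphogenetic proteins, was at 69.3, 58.3, 51.5 and 42.6 CPM in scrambled and 40.2, 40.8, 42.7 and 27.8 CPM in knockdown libraries, a log2 fold change of −0.55 ± 0.17 (SE). A single knockdown library overlapped the scrambled range in each, replicate 3 in both.

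Amino acid genes had 7 of 9 below 0 and a median of −0.11. Cbs, which makes cystathionine from homocysteine, was at 66.9 to 71.2 CPM in scrambled and 52.4 to 64.2 CPM in knockdown libraries, without overlap (log2 fold change −0.25), and the mitochondrial glutamate carrier Slc25a18 had −0.24. Lipid, energy and metallothionein genes had 6 of 9 below 0 and a median of −0.14. Mt2A, a metallothionein, was at 37.0, 50.5, 48.5 and 39.2 CPM in scrambled and 30.2, 24.6, 38.8 and 31.5 CPM in knockdown libraries (log2 fold change −0.49, standard error 0.15), and the fatty acid binding protein gene Fabp7 had −0.42. Metallothionein genes resemble one another in sequence, so the value of Mt2A is uncertain.

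Of the remaining 5 lists, 3 had medians between −0.03 and 0.02. Potassium, sodium and membrane genes had 4 of 8 below 0 (median −0.01), where the urea transporter Slc14a1 had −0.13 and the adhesion gene Hepacam −0.13. Genes for secreted and engulfment proteins that act on synapses had −0.03 with 6 of 9 below 0, where the bone morphogenetic protein antagonist Chrdl1 had −0.19 and the glypican Gpc4 −0.10. Receptors had 0.02 with 3 of 9 below 0, where Gpr37l1 had −0.14 and Notch2 0.49. Reactive genes outside the 20 had −0.19 with 9 of 12 below 0, where the filament gene Synm had −0.27 and the transglutaminase Tgm1 0.81. Signals and regulators of reactivity had −0.16 with 16 of 23 below 0, where the tumour necrosis factor receptor Tnfrsf1a had −0.30, with values of 12.3 to 15.5 CPM in scrambled and 10.6 to 12.2 CPM in knockdown libraries, and Cebpb had −0.34.

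Several reactive genes are also expressed by leukocytes, vessel and meningeal cells, so markers of these cells and of microglia were measured in the same libraries. All 10 tested leukocyte and phagocyte markers were below 0 (median −0.52 on the log2 scale), and 0 had an unadjusted edgeR p under 0.05. Their summed level was 74.5 to 152 CPM in scrambled and 59.5 to 83.8 CPM in knockdown libraries, highest in scrambled replicate 4. Lyz2 alone was at 48.4 to 98.5 CPM in scrambled and 47.1 to 64.8 CPM in knockdown libraries. It made up the larger part of the sum in each library, so the sum mainly follows this gene. Ccr2 was listed at 0 in all 8 libraries, while Ptprc of the same list had 69 to 179 counts. Whether the gene models of Ccr2, and of Cldn5 below, take up reads was not checked. Microglia markers summed to 292 to 401 CPM in scrambled and 282 to 422 CPM in knockdown libraries, with 4 of 10 below 0. Their sum was highest in knockdown replicate 1, as C3 was. It was low in scrambled replicate 3 and knockdown replicates 2 and 4 (292, 303 and 282 CPM), where C3 was also low. Scrambled replicate 4 differed, at 327 CPM for these markers and 56.1 CPM for C3. Fibroblast and meningeal markers summed to 188 to 244 and 151 to 297 CPM, with 6 of 10 below 0. Endothelial markers summed to 119 to 137 and 127 to 151 CPM, with 3 of 8 below 0, and Cldn5 was listed at 0 in all 8 libraries. The part of these cells in the reactive gene values was not tested. Oligodendrocyte markers, of interest because fibrous astrocytes of white matter are rich in Gfap and Cd44, summed to 2155 to 5030 CPM in scrambled and 2725 to 4440 CPM in knockdown libraries, and 14 of 14 were above 0. Red blood cell markers were below 0 in 5 of 5 cases, with a median of −1.14, and none passed the test (edgeR adjusted p = 0.833). At an unadjusted edgeR p under 0.05, 4 of the 5 were lower, beside 3.2% of all genes. Groups did not overlap for 2 of the 5, lower in knockdown libraries, beside 1.65% of all genes. Their sum was 282 to 999.9 CPM in scrambled and 164 to 315 CPM in knockdown libraries. It was highest in scrambled replicate 3, the library at 0 for Lcn2. Markers of oligodendrocyte precursors summed to 243 to 338 and 225 to 280.3 CPM (6 of 7 below 0), of mural cells to 142 to 174 and 115 to 169 CPM (6 of 8), and of ependyma and choroid plexus to 5.81 to 7.12 and 4.96 to 7.41 CPM (2 of 3). At an unadjusted edgeR p under 0.05, 2 of 12 neuronal markers (Nefm and Nefl) were higher and 0 lower. The same held for 1 of 14 oligodendrocyte markers (Ermn), with 0 lower, beside 2.38% of all genes higher. Of 7 precursor markers 1 was lower (C1ql1, without overlap) and 0 higher, beside 3.2% of all genes lower and 1.65% without overlap.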

How the data were processed

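The authors deposited whole-number read counts per gene, without normalization, and FPKM values for the same genes. The submitters' processing notes name HISAT2 2.0.5, featureCounts 1.5.0-p3, StringTie 1.3.3b, fastp and build rn6, without roles or settings, and whether counting used strand is not given in these sources. Columns were matched to samples by title. Samples are named biological replicates in the labels, and every pair within a group differed beyond counting noise (chi-square over its degrees of freedom 23.2 to 47.4).

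Counts were fitted with edgeR 4.0.16 in R 4.3.3: filterByExpr (minimum count 10), TMM scaling, robust quasi-likelihood F test without covariates, 2-sided p-values adjusted by Benjamini-Hochberg over all genes, threshold 0.05. CPM values carry the TMM factors. Standard errors were derived from each log2 fold change and its F value (log2 fold change over √F). Scores use log2 CPM with a prior count of 2. The procedure was tested on simulated counts. Of the listed symbols, 234 matched 1 gene model, 7 were not found and 3 were carried by more than 1 model and left out. Values in every sample are given for 10 well-known members and for the 6 identity and 6 reactive genes with the smallest p, and from each other astrocyte list the genes with the smallest p are named; C3, Serping1 and Lcn2 were added for their spread after their values were seen. The members and lists were chosen with earlier results of these data known. Alternatives were other scalings (RLE, upper quartile), filters, DESeq2 1.42.0, limma 3.58.1 (voom, and log2 FPKM with pseudocounts of 1 and 0.1), a replicate block, removal of the length trend, and left-out libraries.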

Additional observations from a re-analysis of the deposited data

Results flagged for a closer look

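Within groups of 4 libraries, 5 of 76 groups of member values held 1 library far from the other 3 (its gap to the nearest, over the range, was above Dixon's critical value), where chance gives about 1 in 20. Fgfr3 was at 27.3 CPM in scrambled replicate 4 against 41.5 to 42.2 CPM in the other scrambled libraries. S1pr3 was at 9.21 CPM in the same library against 11.9 to 12.2 CPM. Gjb6 was at 35.3 CPM in scrambled replicate 5 against 28.9 to 29.9 CPM. Cldn10 was at 33.4 CPM in knockdown replicate 4 against 38.7 to 39.5 CPM in the other knockdown libraries. Srgn was at 28.4 CPM in knockdown replicate 1 against 19.3 to 20.9 CPM.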

How the results depend on the processing

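No member passed the threshold in any of the 20 alternatives, although DESeq2 gave an adjusted p for only 10 of the 38. Slc10a6 and Cd109 were not tested with the filter of at least 1 CPM in 4 samples. Of the 38 members, 23 kept their direction in all alternatives that tested them, Slc10a6 and Cd109 among them. The number of genes called over the whole table was 18 with DESeq2, 3 without scrambled replicates 3 and 4 and knockdown replicate 3, and 0 to 1 as each library was left out, against 0. The direction turned for Gja1 with RLE scaling (−0.0034), with the length trend removed (−0.037), with DESeq2 (−0.0034), on the log2(FPKM + 1) scale (−0.0043, filtered or not) and the log2(FPKM + 0.1) scale (−0.0044). It turned for C3 with limma-voom (0.47), log2(FPKM + 1) (0.076, filtered or not) and log2(FPKM + 0.1) (0.30), for Lcn2 with limma-voom (1.00) and log2(FPKM + 0.1) (0.30), and for Cp with the length trend removed (−0.010). Without the same 3 libraries F3 was −0.090, Fgfr3 −0.023, Gja1 −0.057 and Cp −0.19. The cause was not tested.

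As each library was left out, 15 members turned in at least 1 case. Their ranges were −0.19 to 0.079 (Aqp4), −0.0053 to 0.15 (F3), −0.056 to 0.18 (Fgfr3), −0.058 to 0.094 (Gja1), −0.12 to 0.013 (Slc1a3), −0.47 to 0.43 (Slc4a4), −0.11 to 0.042 (Slc7a10), −0.28 to 0.075 (Amigo2), −0.88 to 0.35 (C3), −0.11 to 0.13 (Cp), −0.78 to 0.26 (Lcn2), −0.077 to 0.27 (S100a10), −0.26 to 0.0056 (Srgn), −0.089 to 0.78 (Steap4) and −0.23 to 0.086 (Tm4sf1).

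Replicate numbers 1, 3 and 4 occur in both groups. The deviations of same-numbered libraries from their group means correlated at 0.37, 0.30 and 0.09 across genes. The values of 0.37 and 0.30 were the highest between any scrambled and knockdown library, where differently numbered libraries ran from −0.44 to 0.28. Scrambled replicate 4, however, correlated best with knockdown replicate 3 (0.22). The labels state no pairing, and the numbers were not taken to pair the animals. With the replicate block the group difference rested on replicates 1, 3 and 4, since replicates 2 and 5 each occur in 1 group. In that fit 0 genes were called, and the medians were −0.13 (identity) and −0.15 (reactive). The direction turned for Gja1 (−0.094), C3 (1.12), Lcn2 (0.49) and Steap4 (−0.11).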
